A study of Mus musculus with 6 samples.

Results

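Hearts from mice on a high fat diet (HFD) had lower array levels of the adult globin genes and of 3 other genes of red blood cells than hearts from mice on a normal diet (ND). The 4 globin probes stood at 68.4% to 90.8% of their ND level and the 3 others at 39.4% to 64.3%. The genes are 8 of the 36163 gene names on the array: the adult globins *Hba-a1*, *Hba-a2*, *Hbb-b1* and *Hbb-b2*, and the other red cell genes *Alas2*, *Ahsp*, *Slc4a1* and *Epb4.2*. They have 9 of the 55681 probes other than controls, found by an exact match of the gene name, and 7 of these were bright enough to be compared. The 8 genes were selected because of their values in this same comparison of diets, so their differences between HFD and ND are given as a description, without a test.

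The hearts came from male C57BL/6 mice that received the HFD, with 60% of its kcal from fat, or a standard chow from the age of 4 weeks for 4 months. There were 3 ND hearts and 3 HFD hearts, 1 array per heart, and the question was how gene expression in the heart differs after the diet. RNA was taken from heart tissue, so red cells in its vessels and chambers may be part of the sample. Whether the hearts were flushed of blood is not given in the sources used here. In such bulk RNA, fewer red cells and less RNA per red cell cannot be told apart.

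Haemoglobin is built from α-globin and β-globin chains, each of which holds a haem group that binds oxygen. Red cell precursors make the globin mRNAs, the haem enzymes and the membrane skeleton in the bone marrow and spleen. The cell then loses its nucleus, and young red cells (reticulocytes) carry the remaining mRNA into the blood for a short time. In the adult heart these transcripts are usually taken as signs of blood in the tissue, whereas *Mb*, the oxygen store of muscle, is made by the cardiomyocytes themselves.

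The arrays are made of DNA probes of 60 bases, and the probe decides which transcript a value stands for. The sequences of the measured probes are given 5′ to 3′, because several of these genes have close copies. The first group, printed whole, holds the probes with exactly 1 reading frame free of stop codons. No annotation of mm9 was used here, so their place in an exon or untranslated part is not given. The *Hba-a1* probe was placed by the array files at chr11:32183955-32184014 on the plus strand of mm9, and no position on mm9 was given for the *Hbb-b2* and *Ahsp* probes.
Hba-a1 probe: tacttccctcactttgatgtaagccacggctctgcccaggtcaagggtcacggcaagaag
Hbb-b2 probe: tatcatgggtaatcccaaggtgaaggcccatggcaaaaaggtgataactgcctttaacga
Ahsp probe: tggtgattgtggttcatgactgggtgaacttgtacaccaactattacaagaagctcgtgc

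The second group is shown by 30 bases each, the last 30 for *Hba-a2* and the first 30 for the others. The capitals in the *Hba-a2* probe mark AATAAA, the signal for cutting the end of an mRNA before its poly(A) tail is added. The *Hba-a2* probe lies at chr11:32197245-32197304 on the plus strand and the *Hbb-b1* probe at chr7:110961105-110961164 on the minus strand of mm9. The *Alas2* probe lies at chrX:147004993-147005052 on the plus strand and the *Slc4a1* probe at chr11:102210256-102210315 on the minus strand.
Hba-a2 probe, last 30 bases: gtctttgAATAAAgcctgagtaggaagaag
Hbb-b1 probe, first 30 bases: ttttctgctattgtctatgcacaaaggtta
Alas2 probe, first 30 bases: tttgggaacatgggaccccaatatgttacc
Slc4a1 probe, first 30 bases: cccacaaggtctaagaaaagcgtttgccat

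No pair of these probes shared a run of more than 7 identical bases. The 2 α-globin genes are nearly the same in their coding part, so the *Hba-a1* probe may also bind *Hba-a2* transcripts, and its value is uncertain in that respect. C57BL/6 mice are known to carry the β-globin genes *Hbb-bs* and *Hbb-bt*, and the names *Hbb-b1* and *Hbb-b2* belong to another haplotype. The accession of the *Hbb-b1* probe is that of *Hbb-bt* in the RefSeq gene table, and the accession of the *Hbb-b2* probe is still listed under *Hbb-b2*. Which β-globin transcript the *Hbb-b2* probe binds in these mice was not tested.

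The stretch of 120 bases before the transcription start is shown for 3 members, from RefSeq on GRCm38.p6, and is described by letters only. Motifs in capitals are the CCAAT box, a TATA box spelled ATATAA, the CACCC box and the GATA motif, searched on both strands, so that a capital run may be the reverse complement of a motif. The *Hba-a1* window is chr11:32283552-32283671 on the plus strand, the *Hbb-bt* window chr7:103813924-103814043 on the minus strand and the *Alas2* window chrX:150547297-150547416 on the plus strand.
Hba-a1 promoter: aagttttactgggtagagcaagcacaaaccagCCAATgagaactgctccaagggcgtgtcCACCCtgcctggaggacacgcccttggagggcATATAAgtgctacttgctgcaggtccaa
Hbb-bt promoter: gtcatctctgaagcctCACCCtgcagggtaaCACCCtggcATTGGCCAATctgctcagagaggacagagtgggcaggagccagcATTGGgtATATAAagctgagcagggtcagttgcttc
Alas2 promoter: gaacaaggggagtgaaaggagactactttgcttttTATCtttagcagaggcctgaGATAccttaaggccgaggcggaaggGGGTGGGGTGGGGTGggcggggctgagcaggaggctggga

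The *Hba-a1* window holds 1 CCAAT, 1 ATATAA and 1 CACCC. The *Hbb-bt* window holds 3 CCAAT, 1 ATATAA and 2 CACCC, and 2 of its CCAAT matches lie next to each other on opposite strands. The *Alas2* window differs from both, with 3 CACCC and 2 GATA and neither CCAAT nor ATATAA. Over the same window, 21.3% of 32851 promoters hold CCAAT, 4.47% ATATAA, 31.7% CACCC and 29.5% GATA. The windows of *Hba-a1* and *Hba-a2* share a run of 117 identical bases, against 14 between *Hbb-bt* and *Hbb-bs*. These matches are a description of the letters, and no binding was measured.

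A single slide carried the 6 arrays, HFD 1 and HFD 2 on its first row and HFD 3 together with the 3 ND hearts on the second. The share of probes well above background was 49.3% to 53.0%, no spot was saturated, and arrays of the same diet correlated with a Pearson's r of 0.991 to 0.996. Levels are log2 intensities relative to the 75th percentile of the array, so a level of 0 is the brightness of that percentile and a difference of 1 is a doubling. For the measured red cell genes ND 2 had the highest and HFD 3 the lowest level, by margins that were small for some genes. Values without these hearts are given where they matter. The cardiomyocyte markers were bright on every array, from *Myh6* at 9.30 in ND and 9.38 in HFD to the mean of 12 such genes at 7.99 to 8.27 in the 6 hearts. Over all 27599 probes compared with limma (two-sided, Benjamini-Hochberg adjustment), 4 passed an adjusted p of 0.05 (0.0145%). At an unadjusted p below 0.05, 1754 were lower in HFD (6.36%) and 1482 were higher (5.37%), a split that became 2046 lower and 1117 higher when arrays were scaled to their median. The median difference over all probes was −0.0051. The adjusted count ranged from 0 to 80 over the other settings and tools run, and the p-values measure the spread between these 6 hearts.

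The α-globin chains came first. *Hba-a1* had levels of 8.37, 8.71 and 8.42 in ND 1, ND 2 and ND 3, and of 8.30, 8.21 and 7.79 in HFD 1, HFD 2 and HFD 3. The diets did not overlap, but the gap between ND 1 and HFD 1 was only 0.065, and without scaling the intensity of HFD 1 (161361) lay above that of ND 1 (160041). The mean was 8.50 ± 0.18 (SD, n = 3) in ND and 8.10 ± 0.27 (SD, n = 3) in HFD, a difference of −0.40 (SE 0.19), or 75.9% of the ND level. It was −0.24 without HFD 3.

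*Hba-a2*, which encodes the same kind of chain, had levels of 9.06, 9.10 and 9.03 in the ND hearts and 8.99, 9.04 and 8.75 in the HFD hearts. Here the diets overlapped, since HFD 2 lay 0.011 above ND 3, and after scaling HFD 3 was the one heart clearly below the rest. The difference was −0.14 (SE 0.092), or 90.8% of the ND level, and without HFD 3 it was −0.05. The linear intensities of this probe ran from 232349 to 263781, below the saturation value of the scanner of 778658. Without scaling, HFD 3 (232349) lay close below HFD 2 (237946), and HFD 1 (258964) lay above ND 3 (249510). Whether so bright a probe responds less to a change in RNA was not tested.

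The β-globin chain of the *Hbb-b1* probe had levels of 7.90, 8.24 and 7.81 in ND and of 7.59, 7.59 and 7.13 in HFD. Every HFD heart was below every ND heart, by at least 0.22. The difference was −0.55 (SE 0.20), or 68.4% of the ND level, the lowest share among the 4 globin probes. *Hbb-b2* had levels of 5.50, 5.94 and 5.56 in ND and of 5.34, 5.20 and 5.02 in HFD. These hearts did not overlap either, with a gap of 0.16 and a difference of −0.48 (SE 0.17), or 71.7% of the ND level.

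The other red cell genes had wider differences. *Alas2* encodes the enzyme that starts haem synthesis in red cell precursors. Its level was 3.52, 4.14 and 3.53 in ND and 3.28, 3.16 and 2.83 in HFD. ND 1 and ND 3 were nearly the same and ND 2 stood above them, while all HFD hearts were lower by at least 0.24 than any ND heart. The difference was −0.64 (SE 0.24), or 64.3% of the ND level.

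*Ahsp* encodes the chaperone that binds free α-globin until a β-globin chain joins it. It had levels of −2.69, −1.25 and −2.48 in ND and of −3.37, −3.28 and −3.80 in HFD, dim but well above background on all 6 arrays. ND 2 exceeded the mean of the other 2 ND hearts by 1.33, about as much as the difference between the diets of −1.34 (SE 0.48, 39.4% of ND). Without ND 2 the difference was −0.90, and with a background model in place of the subtracted background (normexp) it was −0.73. The lowest ND heart was still 0.59 above the highest HFD heart.

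*Slc4a1* encodes band 3, the anion exchanger of the red cell membrane that anchors the skeleton below it. It had levels of −1.04, 0.10 and −1.01 in ND and of −1.66, −1.53 and −1.87 in HFD. Again ND 1 and ND 3 were close to each other and ND 2 was 1.13 above their mean. The difference was −1.04 (SE 0.39), or 48.7% of the ND level, with a gap of 0.49 between the diets, and it was −0.66 without ND 2.

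*Epb4.2* encodes protein 4.2, which ties band 3 to the membrane skeleton. Neither of its 2 probes was compared. One was well above background in ND 1 only, with a linear intensity of 52.4 there, of 10.6 in ND 2 and of 6.03 in ND 3, against 4.03, 4.18 and 7.09 in the HFD hearts. The other did not rise well above background in any heart, with intensities of 3.65 to 4.59. The heart in which the first probe was bright was thus ND 1, and not ND 2, which was the highest for the 7 measured probes.

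**Figure D1:**
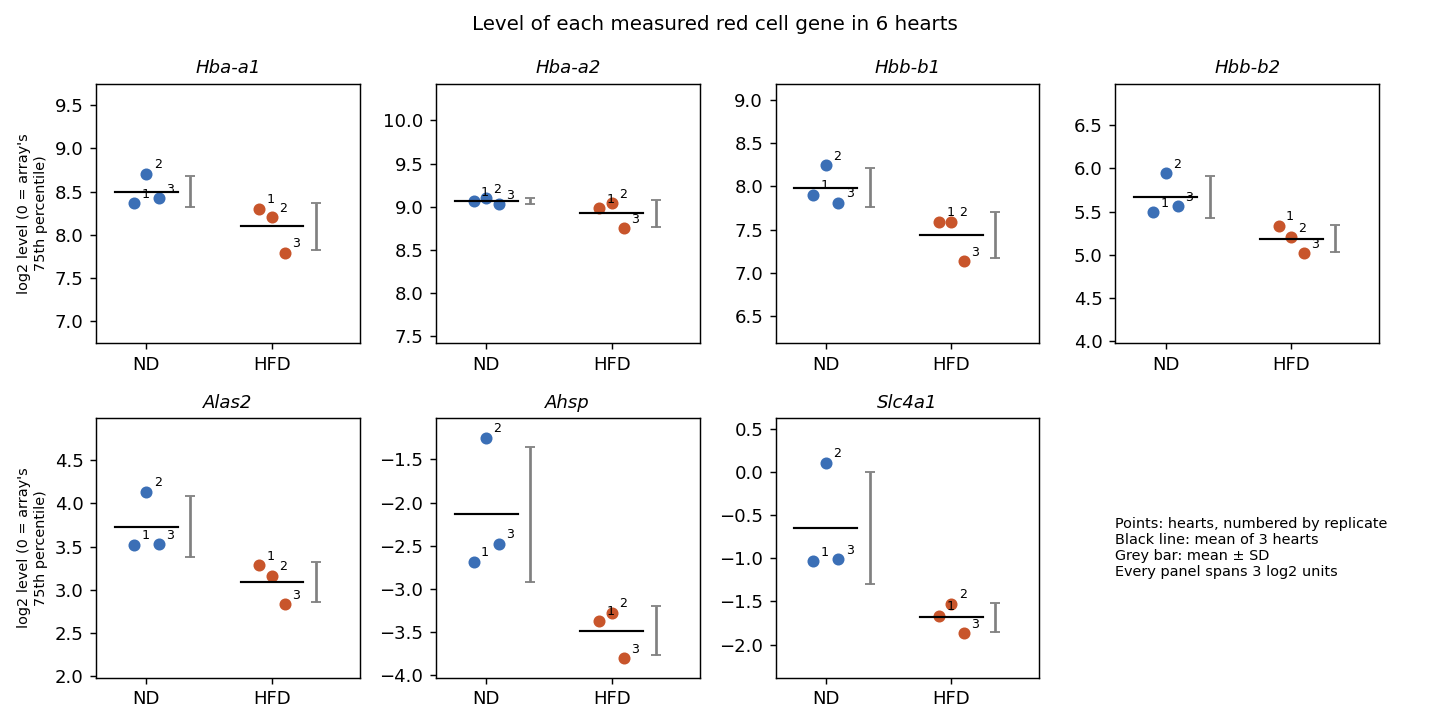
Log2 level of the 7 measured red cell genes in each heart (points, numbered by replicate), with the mean (line) and SD (grey bar) of 3 ND and 3 HFD hearts; 0 is the 75th percentile of the array and every panel spans the same number of log2 units. The HFD hearts lie below the ND hearts for all genes but *Hba-a2*, and *Ahsp* and *Slc4a1* are spread widest in ND, with ND 2 far above the others.

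Of the 7 probes, 6 had all HFD hearts below all ND hearts, which held for 2945 of all probes (10.7%). The members were chosen on this contrast, so nothing is read from that count. The mean over the 4 globin probes was 7.71, 8.0 and 7.71 in the ND hearts and 7.55, 7.51 and 7.17 in the HFD hearts, and the median of their differences was −0.44. The mean over the 3 other probes was −0.067, 1.0 and 0.014 in ND and −0.58, −0.55 and −0.95 in HFD, and the median difference was −1.04. The other red cell genes thus differed more than the globins. With normexp the medians were closer, −0.42 for the globins and −0.73 for the others. The 4 globin probes were also brighter than the 3 others in every heart, and the part of brightness in this was not tested. After each set was centred on its own mean over the 6 hearts, the other genes exceeded the globins by 0.022, 0.79 and 0.10 in ND and by −0.34, −0.26 and −0.32 in HFD. This gap was nearly equal in the HFD hearts. In ND it was by far the largest in ND 2, and ND 1 and ND 3 also lay above every HFD heart.

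The order of the hearts was the same at its ends for all 7 probes. ND 2 was the highest and HFD 3 the lowest heart 7 times of 7, and 4.03% of all probes had both of these ends. The 75th percentile used for scaling was highest in HFD 3 (540, against 451 in HFD 2 and 511 in HFD 1), which lowers its scaled levels. Without scaling, the lowest heart for *Hbb-b2* was HFD 2 (intensity 16585) and not HFD 3 (17509). The ends of the other probes stayed the same. The part of scaling in this order was not tested further. Both ends were also found in 11 of the 55 other red cell genes described further on, in 5 of 9 platelet genes and in 5 of 12 cardiomyocyte genes. The choice of the members by diet favours such an order. ND 2 exceeded the mean of the other 2 ND hearts by 0.31 for *Hba-a1*, 0.053 for *Hba-a2*, 0.39 for *Hbb-b1* and 0.41 for *Hbb-b2*. The excess was larger for *Alas2* (0.61), *Slc4a1* (1.13) and *Ahsp* (1.33). ND 1 and ND 3 differed from each other by at most 0.21 for any of the 7, and the 6 hearts spanned from 0.35 for *Hba-a2* to 2.55 for *Ahsp*. *Ahsp* was 5.86-fold and *Hba-a2* 1.28-fold higher in ND 2 than in HFD 3.

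Across the 6 hearts, the 21 pairs of these probes correlated with a Pearson's r of 0.69 to 0.995, with a median of 0.95. The lowest r was that of *Hba-a2* with *Slc4a1*, and the highest that of *Hbb-b2* with *Alas2*. After the mean of each diet was taken off, the pairs still had an r of 0.43 to 0.99, with a median of 0.89. The genes were thus high and low in the same hearts within a diet as well as between diets. These points share arrays and scaling, are few, and are given without a test.

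**Figure D2:**
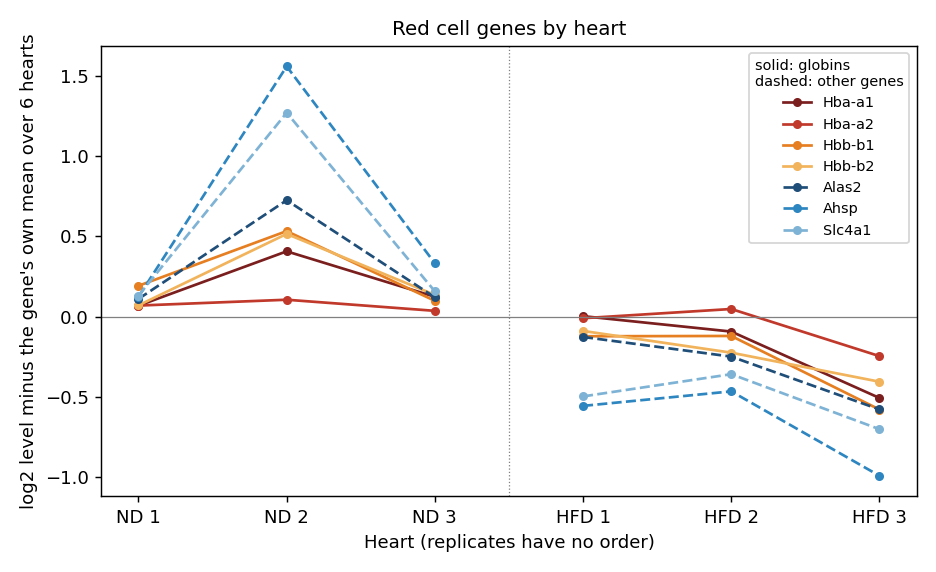
Level of each of the 7 measured red cell genes in each heart, as the log2 difference from the mean of the gene over the 6 hearts; solid lines are globins, dashed lines other red cell genes, and lines join hearts of a diet only to guide the eye. Every line peaks at ND 2 and is lowest at HFD 3, with the dashed lines of *Ahsp* and *Slc4a1* going farthest and *Hba-a2* least.

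The 7 differences, whose direction the choice of members fixed, were also below 0 with quantile and median scaling, the authors' table, normexp, within the second slide row and with any 1 heart left out. The median of the globins ranged from −0.68 to −0.32 and that of the other genes from −1.23 to −0.66. The larger globin value arose within the second slide row, where HFD 3 alone faced the 3 ND hearts. There *Hba-a1* differed by −0.71, *Hba-a2* by −0.32 and *Hbb-b1* by −0.85. Slide row and diet are partly bound together, because no ND heart lay on the first row. Without ND 2, the median was −0.32 for the globins and −0.66 for the others.

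**Figure D3:**
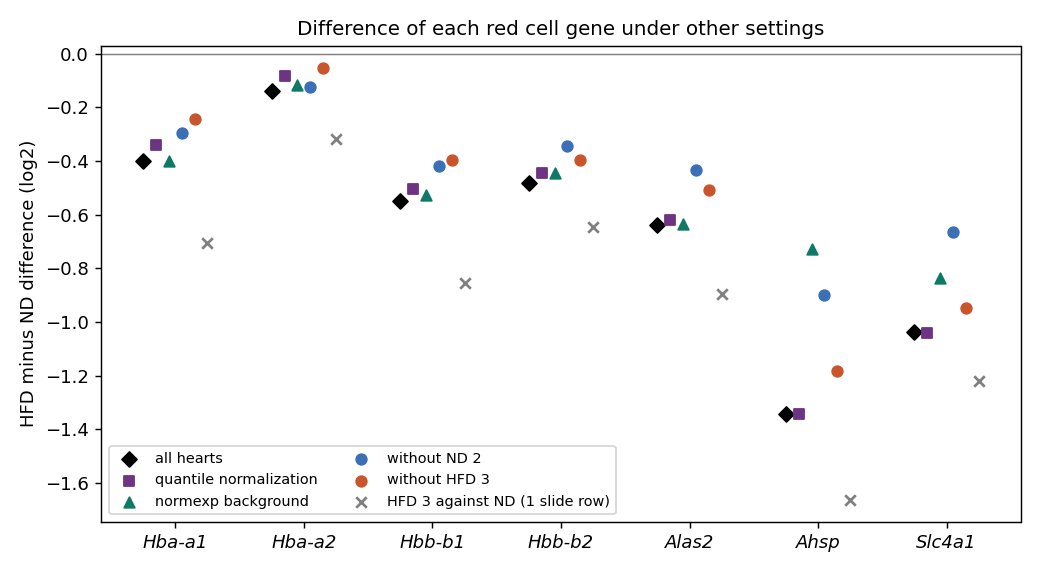
HFD minus ND difference (log2) of the 7 measured red cell genes with all hearts and under 5 other settings, among them the difference without ND 2, without HFD 3, and of HFD 3 alone against the 3 ND hearts of the same slide row. All values lie below 0, *Ahsp* moves most, and *Hba-a2* stays nearest to 0.

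The wider set of red cell genes was less uniform. Across 4 lists (haem synthesis, red cell membrane, red cell enzymes, and regulators of red cell formation), 55 genes other than the members were compared. These lists were chosen with earlier results of these data known. Each gene also stood for its brightest probe, whereas the shares of all probes count every probe, so the counts below are a description only. No gene passed the limma adjustment, nor did any with limma's intensity trend and robust variances or with the test that the methods name. At an unadjusted p below 0.05, 12 genes were lower in HFD (21.8%, against 6.36% of all probes) and 4 were higher (5.37% of all probes). With the trend the counts were 15 and 5, and with the methods' test 11 and 3. All HFD hearts lay below all ND hearts for 16 of the 55 (29.1%, against 10.7%), and the median difference was −0.091. Without ND 2 the counts at an unadjusted p below 0.05 were 7 lower (12.7%, against 4.02% of all probes) and 3 higher (4.25% of all probes).

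Of the 16 genes of haem synthesis, 2 were lower and 0 higher at an unadjusted p below 0.05, and the median was −0.083 (−0.13 without HFD 2). The one that differed most was *Slc25a37*, the importer that brings iron into the mitochondria of red cell precursors. It had levels of 2.29, 2.69 and 2.37 in ND and of 2.06, 2.06 and 1.87 in HFD, a difference of −0.45 (limma SE 0.13, adjusted p = 0.289). ND 2 was again highest and HFD 3 lowest. *Tmem14c*, which passes haem precursors through the mitochondrial membrane, differed by −0.18 (adjusted p = 0.407). *Slc25a39*, which carries glutathione into mitochondria, differed by 0.13 (adjusted p = 0.507). *Alas1*, the form of the first enzyme that other tissues use, differed by −0.23 (adjusted p = 0.579), with overlapping diets.

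Among red cell membrane genes, 14 of the 19 on the array were compared, and 5 were lower and 1 higher at an unadjusted p below 0.05, with a median of −0.14. *Tspo2*, a protein of the translocator family made in late red cell precursors, had levels of −0.84, −0.13 and −0.84 in ND and of −1.27, −1.23 and −1.43 in HFD. Its difference was −0.71 (limma SE 0.21, adjusted p = 0.306), and its hearts stood in the same order at both ends as those of the members. *Icam4*, an adhesion protein of red cells, differed by −0.65 (adjusted p = 0.303) and *Xk*, part of a blood group complex, by −0.28 (adjusted p = 0.279). *Spna1*, the α-spectrin of red cells, went the other way, with a difference of 0.40 (adjusted p = 0.234). Among the 5 membrane genes that were too dim to be compared, *Rhag*, *Kel* and *Add2* were well above background on 0 arrays.

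For the enzymes and other proteins of red cells, 18 of 21 genes were compared, and 5 were lower and 1 higher at an unadjusted p below 0.05, with a median of −0.16. *Hemgn*, a nuclear protein of blood cell precursors, differed by −0.29 (adjusted p = 0.287) and *Gpx1*, a peroxidase found in most tissues, by −0.47 (adjusted p = 0.289). The *Hemgn* probe was bright, with levels of 5.73, 5.69 and 5.72 in ND and of 5.43, 5.53 and 5.32 in HFD. Unlike for the members, ND 2 was its lowest ND heart. *Cat*, the catalase that red cells share with most tissues, was higher by 0.43 (adjusted p = 0.254). *Bpgm*, which makes the 2,3-bisphosphoglycerate that loosens oxygen from haemoglobin, differed by −0.28 (adjusted p = 0.425).

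The regulators of red cell formation were mixed, with means higher in HFD for 5 and lower for 2 of the 7 genes compared. Over all probes, 51.2% had a lower mean in HFD. Of the 7 genes, 0 were lower and 2 higher at an unadjusted p below 0.05, and the median was 0.32. That median was 0.15 without HFD 1 and 0.17 within the second slide row. *Epor*, the receptor of erythropoietin, had levels of −0.11, −0.28 and −0.49 in ND and of 0.32, 0.02 and 0.00 in HFD, a difference of 0.41 (limma SE 0.14, adjusted p = 0.353). *Bcl11a*, a repressor of embryonic and fetal globin genes, differed by 0.39 (adjusted p = 0.353). *Cited4* and *Lmo2* differed by 0.32 and −0.20 (adjusted p = 0.459 and 0.467). Genes that define precursors in the marrow were at or near background, with *Gata1*, *Gfi1b* and *Myb* well above background on 0 arrays, *Klf1* on 1 and *Nfe2* on 4.

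Globins other than the adult chains were dim or did not differ clearly. The embryonic *Hba-x* and *Hbb-y* were well above background on 0 arrays and *Hbb-bh1* on 1. *Hbq1b*, a θ-globin gene, was dim, with levels of −3.33, −2.61 and −3.79 in ND and of −3.91, −2.77 and −3.70 in HFD. Its difference was −0.22 (limma SE 0.40, adjusted p = 0.876). *Mb*, the muscle globin, had levels of 9.17, 9.22 and 9.06 in ND and of 9.03, 9.21 and 8.93 in HFD. The difference of −0.09 (limma SE 0.096, adjusted p = 0.753) was less than the spread between hearts. *Cygb*, a globin of fibroblasts, differed by −0.04 (adjusted p = 0.914).

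Genes that take up haemoglobin, break down haem or move iron were measured in 16 cases, and 2 were lower and 1 higher at an unadjusted p below 0.05, with a median of −0.092 (−0.054 without HFD 2). *Cd163*, the macrophage receptor for haemoglobin bound to haptoglobin, was dim and had levels of −3.24, −3.03 and −3.02 in ND and of −3.91, −5.21 and −3.46 in HFD. Its difference was −1.10 (limma SE 0.43, adjusted p = 0.414), and HFD 2, not HFD 3, was lowest. *Cd163* is 1 of the 2 genes counted as lower, but its probe cleared the background threshold in only some of the hearts. The size of its difference is therefore uncertain. When only probes that cleared this threshold in all 6 hearts were kept, the median of the list was −0.076. *Blvra*, which turns biliverdin into bilirubin, differed by −0.18 (adjusted p = 0.394) and *Hfe* by −0.19 (adjusted p = 0.430). *Slc40a1*, the exporter ferroportin, had a difference of 0.41 (adjusted p = 0.406), with overlapping diets.

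Genes of other blood cells were set beside the members. All 9 platelet genes compared had lower means in HFD (51.2% of all probes did), with a median of −0.33, and 1 had an unadjusted p below 0.05. Their mean level was −1.23, −0.61 and −1.23 in ND and −1.22, −1.32 and −1.54 in HFD, so ND 2 was high and ND 1, ND 3 and HFD 1 were alike. ND 2 was the highest heart for 7 of the 9, against 15.3% of all probes. Without ND 2 the median was −0.11, without ND 1 −0.56 and without HFD 3 −0.19. *Treml1*, a receptor of platelet granules, differed by −0.75 (limma SE 0.25, adjusted p = 0.348), and *Ppbp*, *Clec1b* and *Gp9* by −0.50, −0.45 and −0.56 (adjusted p = 0.536, 0.579 and 0.610). The 3 probes of *Clec1b* ranged from −0.45 to −0.14. *Pf4*, by far the brightest of the 9 with a level of 4.03 in ND, differed by only −0.03 (adjusted p = 0.922), and ND 3 was its highest heart. The part of platelets or blood volume in the result for the red cell genes was not tested.

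The white cell genes were mixed. For neutrophils, 6 of 13 genes were compared, with 1 lower and 1 higher at an unadjusted p below 0.05 and a median of −0.31 (−0.11 without HFD 3). Their mean level was 1.08, 1.18 and 0.18 in ND and 0.91, 0.76 and −0.03 in HFD, so that ND 3 was lower than HFD 1 and HFD 2. *S100a9* had 2.38, 2.26 and 0.10 in ND and 1.21, 1.60 and −0.66 in HFD, and *S100a8* followed it. *Lcn2*, which cardiac cells can also make, differed by −0.54 (limma SE 0.10, adjusted p = 0.184) and *Elane* by 0.50 (adjusted p = 0.414). The neutrophil genes *Mpo* and *Ngp* were well above background on 0 arrays and 1 array.

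For lymphocytes, 7 of 13 genes were compared, with 1 lower (*Cd79b*, −0.34, adjusted p = 0.425) and 0 higher at an unadjusted p below 0.05. The median of 0.090 lay between −0.086 without HFD 2 and 0.16 without ND 2, and *Ms4a1* was well above background on 0 arrays. The lymphocyte genes *Cd2*, *Cd3d* and *Lck* differed by 0.44, 0.61 and 0.29 (adjusted p = 0.595, 0.687 and 0.826), with HFD 3 the highest heart for each of them. That is the heart in which the red cell genes were lowest. HFD 3 was, however, also the lowest heart for 3 of the 7 lymphocyte genes (16.7% of all probes), and *Cd3e* differed by −0.03 (adjusted p = 0.940). The list as a whole thus gave no common order of the hearts.

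The cells of the heart wall were compared last. Of 12 endothelial genes, 2 were lower in HFD at an unadjusted p below 0.05, *Egfl7* (−0.28, adjusted p = 0.331) and the VEGF receptor gene *Kdr* (−0.25, adjusted p = 0.334). A dimmer probe of *Kdr* differed by only −0.06. *Tek* and *Cldn5* differed by 0.15 and 0.31 (adjusted p = 0.492 and 0.592), and the median of the list was 0.0033, with its sign turning under 4 of the other settings. Of 12 cardiomyocyte genes, 0 had an unadjusted p below 0.05 in limma and the median was −0.076 (−0.023 without HFD 3). Their mean level was 8.11, 8.19 and 8.27 in ND and 8.24, 8.06 and 7.99 in HFD, so HFD 3 was the lowest heart here too. HFD 3 was lowest for 16.7% of all probes and for 9 of these 12 genes. The lowest p-values among them were those of *Mybpc3* (−0.21), *Tnni3* (−0.14), *Ttn* (−0.13) and *Pln* (−0.11), with adjusted p from 0.596 to 0.706.

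**Figure D4:**
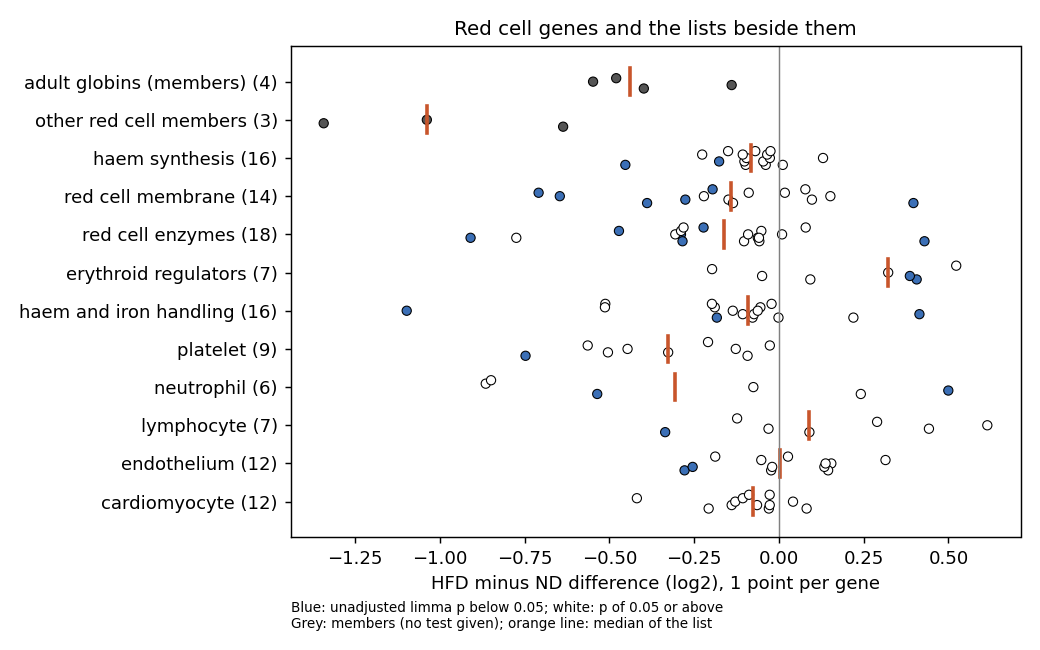
HFD minus ND difference (log2) of every compared gene (1 point each, number of genes in parentheses) in the red cell members and in each list set beside them; orange lines are medians, blue points have an unadjusted limma p below 0.05, and the members are grey because they were chosen on this contrast and are not tested. The median is −0.44 for the globins and −1.04 for the other members, between −0.33 and 0 for most lists, and 0.32 for the regulators of red cell formation.

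Genes with the most similar pattern were sought among 25926 probes of other genes that were well above background on all 6 arrays, by Pearson's r over the 6 hearts. With the mean of *Alas2*, *Ahsp* and *Slc4a1*, *Tspo2* ranked first (r = 0.997), followed by *Yipf4* (0.996) and *Slc25a37* (0.993), and *Trmt6*, *Treml1*, *Gys1*, *Cdh16* and *Bpgm* were among the first 10 (0.98 to 0.99). Of these, *Tspo2*, *Slc25a37* and *Bpgm* belong to the red cell lists and *Treml1* to the platelet list. *Yipf4* matched in shape only, since its 6 hearts spanned 0.15. The median r over all probes was 0.063.

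With the globin mean the first 10 were of another kind. *Ninj2* (r = 0.998) was dim, with levels of −4.52 to −3.84. Others were the unnamed or model genes *1700009P17Rik* and *Gm10290*, 5 probes that carry an identifier in place of a gene symbol, *Mapk8ip3* (0.99) and 1 probe of *Gapdh*, the glycolytic enzyme often used as a reference gene (0.99). That probe had levels of 6.90, 7.04 and 6.85 in ND and of 6.77, 6.78 and 6.60 in HFD, a difference of −0.21. Tested genes of the red cell lists were also close to the globin mean, with an r of 0.96 for *Slc25a37* and 0.95 for *Bpgm*, outside the first 10. Platelet genes were as close, with an r of 0.97 for *Treml1* and 0.95 for *Ppbp*.

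With the diet means taken off, *Gm5069*, *Ninj2*, *1700009P17Rik*, *Kif2a*, *Bend4*, *Tnnt2*, *S100pbp*, *Csnk1g3*, *Zmynd8* and *Trafd1* were most like the globin mean (r of at least 0.99). *Tnnt2* encodes the troponin T of cardiomyocytes and is one of the cardiomyocyte genes, with levels of 8.72, 8.93 and 8.71 in ND and of 8.87, 8.85 and 8.56 in HFD. Within each diet it was thus high and low in the same hearts as the globins, although its difference between diets was only −0.03. Most like the other red cell genes in the same way were *Tmem63b*, *Yipf4*, *Rcor1*, *Frmd8*, *Isg20*, *Tspo2*, *Atp8b5* and *Zfp295* (r of at least 0.99). *Isg20* and *Tspo2* are in the red cell lists. With 6 points and so many probes scanned, high values of r arise in number, and they are given as a ranking only.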

How the data were processed

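RNA from 3 ND and 3 HFD hearts was measured on 6 one-colour (Cy3) Agilent mouse arrays. The authors deposited linear intensities, from which Agilent Feature Extraction 10.7.1.1 (10.7 in the submitters' processing notes) had subtracted the background. These were not normalized between arrays. They also deposited a table of log2 values, which lay within 0.0019 (median difference per array) of a quantile normalization of the intensities and served as an alternative. Probes carry mm9 positions and the gene names of the array design.

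Control spots and spots the software marked as outliers were left out, the log2 intensity minus the 75th percentile of the array was taken, and spots of a probe were averaged. To be compared, a probe had to be well above background in all 3 hearts of 1 diet or both and measured in at least 2 hearts of each diet. Differences were fitted with limma 3.58.1 in R 4.3.3 (jsonlite 2.0.0, statmod 1.5.0, data.table in version 1.17.8), with Benjamini-Hochberg adjustment over all probes compared. In the lists a gene stood for its brightest probe by mean level. The code was tested on simulated data. Figures were drawn with matplotlib 3.10.9 in Python 3.11.15 (pandas 2.3.3).

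The members and lists were chosen with earlier results of these data known. Named are all members, up to 4 genes of each list by lowest p, defining genes near background, and the 10 genes most like each member mean, except those that carry only a probe, transcript or coordinate identifier. *Myh6*, *S100a8*, *Cd3e* and *Pf4* are named as cell type markers. The separate results of a few list genes are not reported here. Of the 9 probes, 7 had an accession in the RefSeq table (GRCm38.p6). The 3 hearts per diet limit the precision, and the software gave the globin intensities an error of 10%. Alternatives were quantile, median and normexp processing, the authors' table, outlier spots kept, other filters on dim probes, the replicate block, the slide row, trend and robust variances, array weights, the methods' t-test, and each heart left out.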

Additional observations from a re-analysis of the deposited data

How the results depend on the processing

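The number of probes past the adjustment was 4 with all hearts. It was 7 with median scaling, 37 with normexp, 2 with the authors' table and with the methods' t-test, 10 with array weights and 80 with the trend and robust variances. It was 0 with no filter on dim probes, with the slide row as a term, within the second slide row, and with the replicate block, which left 1582 lower and 1420 higher at an unadjusted p below 0.05. Leaving out 1 heart gave 0 to 5, with 0 without ND 1, HFD 2 or HFD 3.

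The paired check gave correlations of −0.16, 0.16 and 0.21 for hearts with the same number, so the replicate numbers were not taken as pairs. With the replicate block, 0 of the 55 genes of the red cell lists passed, and 8 were lower and 4 higher at an unadjusted p below 0.05.

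The globin median of −0.44 was −0.68 with the slide row as a term and within the second row, and −0.53 to −0.32 without 1 heart. The median of the other red cell genes was −1.23 to −0.66 without 1 heart. The sign turned for the endothelial median (−0.025 with median scaling, −0.021 with the slide row as a term and within the row, −0.025 without HFD 2), for *Hbq1b* (0.10 without ND 2, 0.0076 without HFD 1) and for the lymphocyte median (−0.086 without HFD 2). Leaving out 1 heart gave −0.025 to 0.050 for the endothelial median, −0.56 to 0.10 for *Hbq1b* and −0.086 to 0.16 for the lymphocyte median. Other list medians kept their sign but moved by over 1.5 times: haem synthesis to −0.054 with quantile normalization and −0.13 within the second row, haem and iron handling to −0.060 with normexp, platelets to −0.19 with normexp and −0.60 within the row, neutrophils to −0.46 within the row, and cardiomyocytes to −0.023 with quantile normalization and −0.18 within the row. The probes of *Epb4.2* and of 5 of the 12 regulators on the array were too close to background to be compared, and *Ahsp* depends on the background correction. The causes of these changes were not tested.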
